A study of Mus musculus with 6 samples.

Results

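The 8 genes Ccl2, Ccl7, Ccl12, Ccl3, Ccl4, Ccl5, Cxcl1 and Cxcl5 encode chemokines that attract monocytes and neutrophils. They were taken by gene symbol from the probe annotation of the array, where each has 1 probe among 10076, and they make up 8 of 8841 named genes. Messenger RNA was measured on 6 one-colour arrays, 1 for each of 6 groups of macrophages elicited by thioglycollate, a sterile irritant, in female C57BL/6 mice 6 weeks old. The groups were TSA + GW3965 + LPS, GW3965 + LPS, TSA + LPS, LPS, TSA and No treatment. TSA, trichostatin A, inhibits histone deacetylases, enzymes that remove acetyl groups from histones. GW3965 activates the liver X receptors, nuclear receptors of cholesterol metabolism, and LPS, lipopolysaccharide, is the bacterial cell wall component sensed through Toll-like receptor 4. GW3965 was given only together with LPS, so its effect was not measured in resting cells. The labels give neither doses nor times, and they do not say whether mice were pooled.

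Chemokines are small secreted proteins that bind G protein-coupled receptors and guide leukocytes along a gradient. CC chemokines such as Ccl2 act on monocytes and other cells, whereas Cxcl1 and Cxcl5 bind Cxcr2, the main chemokine receptor of neutrophils. Macrophages that sense LPS transcribe many chemokine genes through NF-kB and interferon regulatory factors.

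Deposited intensities had been scaled so that each array's median lay between 0.981 and 0.987, and a value of 1 is therefore close to the middle of all probes. For the tests, values were floored at each array's 25th percentile, 0.198 to 0.245, and taken to log2; no value of the 8 chemokines lay under the floor. Since each group has 1 array, a difference between 2 arrays has no replicate check. The tests come from limma, an additive model over all 6 arrays with terms for LPS, TSA and GW3965, fitted to 5080 genes, with Benjamini-Hochberg adjustment over all of them; "rose" and "fell" mark a two-sided adjusted p under 0.05. Nothing in the labels says that the arrays came from separate cultures, and no group has a replicate array. The standard errors, intervals and p-values of the additive model therefore do not rest on a spread between like samples. They rest on departures from additivity, with 2 residual degrees of freedom, and on a prior spread taken from all genes. Such departures may be technical, or may arise where treatments act differently in combination, and the model cannot separate these. All 8 chemokines passed the level filter, 6 of them on a resting array too, while Ccl12 and Cxcl5 stood above an array's median only with LPS.

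Macrophage marker genes were mostly above the array median, at widely different levels. Of 7 on the array, 6 stood above the median on all 6 arrays. Adgre1 was above it on 5 of 6 arrays and read 0.730 with No treatment. Lyz2 read 729 to 1050, Cd14 21.6 to 351 and Msr1 36.2 to 123. Mrc1 (4.82 to 8.30), Itgam (1.74 to 3.97) and Fcgr1 (1.74 to 4.79) were lower than the T or NK cell marker Gzma (21.3 to 39.6). Of 7 neutrophil markers only S100a8 was above the median on every array, while the granule gene Mpo was under the floor on all 6. The summed neutrophil markers read 51.6 to 82.0 on the LPS arrays and 34.2 and 24.2 on the TSA and No treatment arrays, nearly all of it S100a8. Camp was higher on the LPS arrays too (0.834 to 2.54 against 0.0692 and 0.172), whereas Ltf was lower (0.306 to 0.435 against 1.11 and 0.771). Of 8 T or NK cell markers Gzma and Cd4 were above the median throughout, whereas Cd3e, Cd8a and Nkg7 were under the floor on all 6 arrays. The summed T or NK markers read 31.6 in TSA + GW3965 + LPS, 32.9 in GW3965 + LPS, 43.6 in TSA + LPS, 24.5 in LPS, 27.8 in TSA and 25.2 in No treatment. Most of each sum was Gzma, while Cd4 read 1.17 to 2.16 and was highest with No treatment. Marker sums for B cells (3 on the array) lay between 6.03 and 8.02, for mast cells or eosinophils (6) between 16.8 and 24.7, and for mesothelial cells or fibroblasts (6) between 9.36 and 16.2. In each of these 3 lists 2 markers were above the median on all 6 arrays. In such bulk samples fewer cells of a type and less RNA per cell cannot be told apart. The part of other cells in the results that follow was not tested.

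LPS against resting cells, with and without TSA, shows how far the stimulus raised each chemokine. All 8 chemokines rose with LPS, and on all 4 arrays with LPS each read above both arrays without it. By limma 12.3% of all genes rose and 7.11% fell, 19.4% in either direction, and 19.4% of genes lay wholly above in this way against 14% wholly below. Each of the 8 was also at least 2-fold higher in both LPS pairs, where 14% of measured genes were higher by that much and 6.05% lower for LPS over No treatment, and 9.2% higher and 6.37% lower for TSA + LPS over TSA. Ccl12 and Cxcl5 entered these counts only through their arrays with LPS, which favours a rise, whereas the other 6 passed the level filter at rest too. The median LPS effect of the 8 was 5.44 on the log2 scale, against 0.03 over all 5080 genes. Their size differed widely, from Ccl7 with the 4th largest of all LPS effects to Cxcl5 with the 270th.

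Among the monocyte attractants that bind Ccr2, Ccl2 read 347 in TSA + GW3965 + LPS, 281 in GW3965 + LPS, 547 in TSA + LPS, 412 in LPS, 6.63 in TSA and 7.02 in No treatment. Its lowest value with LPS was 40-fold above its highest value without, and it was highest in TSA + LPS. The LPS effect was 6.12 (SE 0.24, limma adjusted p = 2.94e-13), or 69.6-fold. Ccl7, a related attractant that also binds Ccr1, read 119 in TSA + GW3965 + LPS, 91.0 in GW3965 + LPS, 214 in TSA + LPS, 159 in LPS, 1.61 in TSA and 1.07 in No treatment. It was close to the array median at rest and followed the same order as Ccl2 among the arrays with LPS. Its LPS effect was 7.14 (SE 0.25, limma adjusted p = 6.21e-14), or 141-fold. Ccl12, a mouse chemokine and Ccr2 ligand, read 5.10 in TSA + GW3965 + LPS, 3.43 in GW3965 + LPS, 7.96 in TSA + LPS, 9.42 in LPS, 0.709 in TSA and 0.551 in No treatment. It was below the array median at rest, and both values with GW3965 were below both values with LPS but no GW3965. Ccl12 rose by 3.79 (SE 0.28, limma adjusted p = 3.88e-09).

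Ccl3, Ccl4 and Ccl5 are CC chemokines that attract monocytes and T cells. Ccl3 read 461 in TSA + GW3965 + LPS, 732 in GW3965 + LPS, 595 in TSA + LPS, 745 in LPS, 24.9 in TSA and 24.6 in No treatment. Its resting signal was already 25-fold above the array median with No treatment, and both arrays with TSA and LPS were below both arrays with LPS and no TSA. Its LPS effect was 4.75 (SE 0.23, limma adjusted p = 8.98e-12). Ccl4, the close relative of Ccl3, read 54.0 in TSA + GW3965 + LPS, 66.8 in GW3965 + LPS, 63.8 in TSA + LPS, 75.2 in LPS, 9.20 in TSA and 11.2 in No treatment. Its arrays with LPS stayed within 1.39-fold of each other, and the array with TSA was the lower one in every pair. Ccl4 rose by 2.77 (SE 0.24, limma adjusted p = 4.09e-08). Ccl5, which draws T cells, monocytes and eosinophils, read 901 in TSA + GW3965 + LPS, 856 in GW3965 + LPS, 1116 in TSA + LPS, 900 in LPS, 8.38 in TSA and 9.42 in No treatment. Its values with LPS differed by 1.30-fold from lowest to highest, and with LPS alone only 1 probe of the array was brighter. No saturation mark was used here, and whether the top of the scale bears on its values was not tested. Its LPS effect was 6.82 (SE 0.23, limma adjusted p = 5.48e-14), or 113-fold.

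Of the neutrophil attractants, Cxcl1 read 223 in TSA + GW3965 + LPS, 260 in GW3965 + LPS, 180 in TSA + LPS, 172 in LPS, 1.82 in TSA and 1.21 in No treatment. Unlike the others it was highest where GW3965 was present, and its lowest value with LPS was 94.5-fold above its highest value at rest. Its LPS effect was 6.89 (SE 0.26, limma adjusted p = 1.91e-13), or 118-fold. Cxcl5 read 1.08 in TSA + GW3965 + LPS, 1.19 in GW3965 + LPS, 1.43 in TSA + LPS, 2.08 in LPS, 0.585 in TSA and 0.516 in No treatment. Its values with LPS were close to the array median and its resting values below it, and the gap between its lowest value with LPS and its highest at rest was 1.85-fold. It rose by 1.65 (SE 0.32, limma adjusted p = 0.000676), an effect of 0.81 when the floor was raised to each array's median, which hides its resting values.

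**Figure D1:**
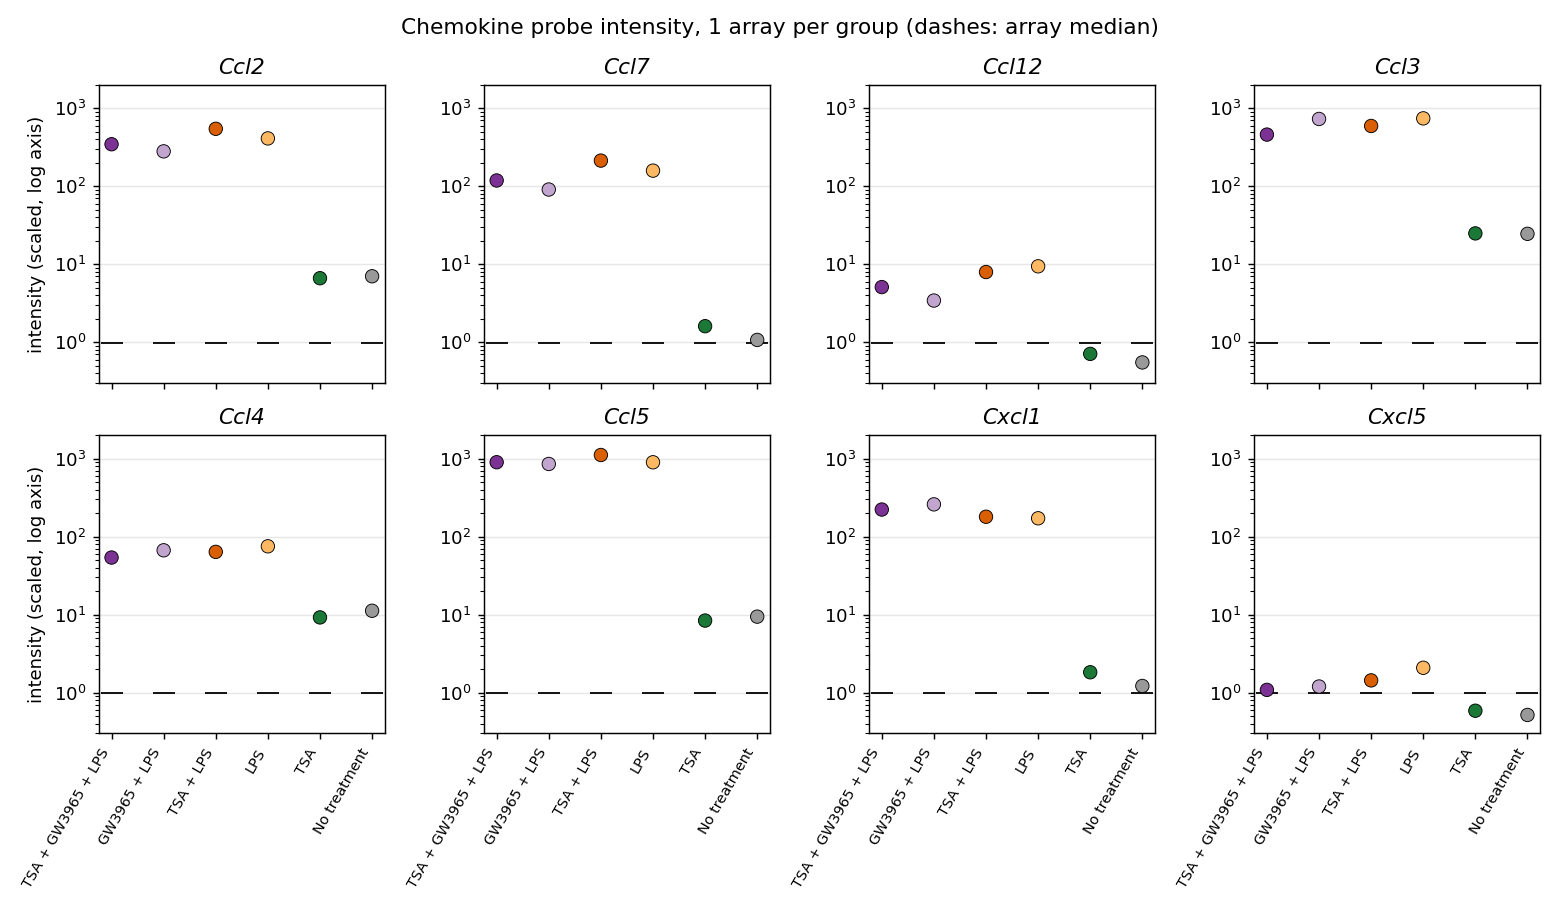
Intensity of the 8 chemokine probes (log axis, scaled units) in the 6 groups, 1 array each; dashes mark the array median. The 4 arrays with LPS lie above the TSA and No treatment arrays in every panel, by 1.85-fold for Cxcl5 and 94.5-fold for Cxcl1 between the nearest values.

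Promoter sequence from RefSeq on the mouse build GRCm38.p6 was matched for 3 of the 8 genes, Ccl12, Ccl3 and Cxcl1. The 250 bases before the start of each are shown, since only these 3 were matched. They were not chosen by response, as all 8 genes rose with LPS. Both strands were searched for an NF-kB motif (GGG, any 2 bases, TTTCC), an AP-1 motif (TGANTCA), an interferon response element (GAAA, any 2 bases, GAAA) and a TATA motif (TATAA). Capitals mark the matches.
Cxcl1, chr5:90890995-90891244, plus strand: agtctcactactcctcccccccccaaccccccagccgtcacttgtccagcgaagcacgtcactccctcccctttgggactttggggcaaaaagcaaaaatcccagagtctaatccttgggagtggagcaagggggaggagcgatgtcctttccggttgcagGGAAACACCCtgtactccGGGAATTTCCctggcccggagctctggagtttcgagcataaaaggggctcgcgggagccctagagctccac
Ccl12, chr11:82101595-82101844, plus strand: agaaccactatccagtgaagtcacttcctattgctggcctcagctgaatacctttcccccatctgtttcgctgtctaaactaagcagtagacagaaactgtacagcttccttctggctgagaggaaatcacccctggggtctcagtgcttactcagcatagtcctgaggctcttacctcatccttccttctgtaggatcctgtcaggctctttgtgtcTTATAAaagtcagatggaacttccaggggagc
Ccl3, chr11:83649379-83649628, minus strand: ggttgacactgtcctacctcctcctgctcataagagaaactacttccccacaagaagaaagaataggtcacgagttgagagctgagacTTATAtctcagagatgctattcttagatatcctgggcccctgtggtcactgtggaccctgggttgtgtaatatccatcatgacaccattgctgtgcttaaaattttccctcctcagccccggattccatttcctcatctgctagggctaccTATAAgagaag
In the Cxcl1 promoter the capitals are the NF-kB letters, GGGAATTTCC on the strand of the gene, starting 71 bases before its start, and GGAAACACCC, which is the motif read on the opposite strand, starting 89 bases before it. In those of Ccl12 and Ccl3 they are TATA letters, 31 bases before the start of Ccl12 and 11 before that of Ccl3, each with a match on the opposite strand, 32 bases before the start of Ccl12, overlapping the first, and 162 before that of Ccl3. Of all 32851 promoters of this length 1.41% held the NF-kB letters, 22.8% the TATA letters, 6.75% the AP-1 letters and 2.98% the interferon element, the last 2 of which had no match in these windows. A match is a description of the letters only.

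TSA against the same condition without TSA asks what the deacetylase inhibitor did to these genes, in resting cells, with LPS, and with GW3965 and LPS. None of the 8 chemokines passed for TSA in limma. Only 1 (Ccl7) had an unadjusted p under 0.05, against 1626 of all 5080 genes. Among all genes 18.5% were called, 11% risen and 7.54% fallen. No chemokine differed 2-fold with TSA in any of the 3 pairs, where 6.98% of measured genes were 2-fold higher and 4.69% lower at rest, 7.57% higher and 9.55% lower with LPS, and 4.83% higher and 1.13% lower with GW3965 and LPS. The median TSA effect of the 8 was 0.11, against 0.01 over all genes.

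The direction was not shared. Ccl7 was higher with TSA in 3 of 3 pairs, as were 27.3% of all genes, by 1.31-fold with GW3965 and LPS, 1.34-fold with LPS and 1.5-fold at rest. Its effect of 0.47 (SE 0.20, 95% interval 0.05 to 0.89) had a limma adjusted p of 0.113. Ccl4 was lower in 3 of 3 pairs, as were 23.1% of all genes, with a mean difference of -0.28 ± 0.04 (SD, n = 3 pairs) and a limma adjusted p of 0.366. Ccl2 was 1.23-fold and 1.33-fold higher with TSA in the pairs with LPS and 1.06-fold lower at rest. Ccl3, in contrast, was 1.59-fold and 1.25-fold lower with TSA in the pairs with LPS and level at rest, at 24.9 with TSA and 24.6 with No treatment. Over the 3 pairs its effect was -0.32 (SE 0.19, limma adjusted p = 0.26). This call rested on the scaling, since Ccl3 fell by 0.59 after quantile normalization (limma adjusted p = 0.0183) and by 0.53 after cyclic loess (limma adjusted p = 0.0355), and its difference at rest was then negative too.

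For the other 4 the TSA differences changed sign between pairs. Ccl12 was 1.49-fold higher with TSA where GW3965 was present and 1.18-fold lower with LPS alone. Cxcl1 was 1.17-fold lower in the first of these pairs, 1.05-fold higher in the second and 1.5-fold higher at rest, where its values of 1.82 with TSA and 1.21 with No treatment were near the array median. Ccl5 differed by 1.24-fold at most, and its sign with TSA + LPS over LPS turned negative after quantile normalization and after cyclic loess, as did that of Cxcl1. Cxcl5 was lower in TSA + LPS than in LPS by 1.45-fold, at 1.43 and 2.08. The 95% intervals of the TSA effect of the 8 ran from -0.72 (Ccl3) at the lowest to 0.89 (Ccl7) at the highest. Fitting the 4 arrays with LPS alone gave -0.50 for Ccl3 (limma adjusted p = 0.23) and 0.36 for Ccl2 (limma adjusted p = 0.435), with none of the 8 passing.

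**Figure D2:**
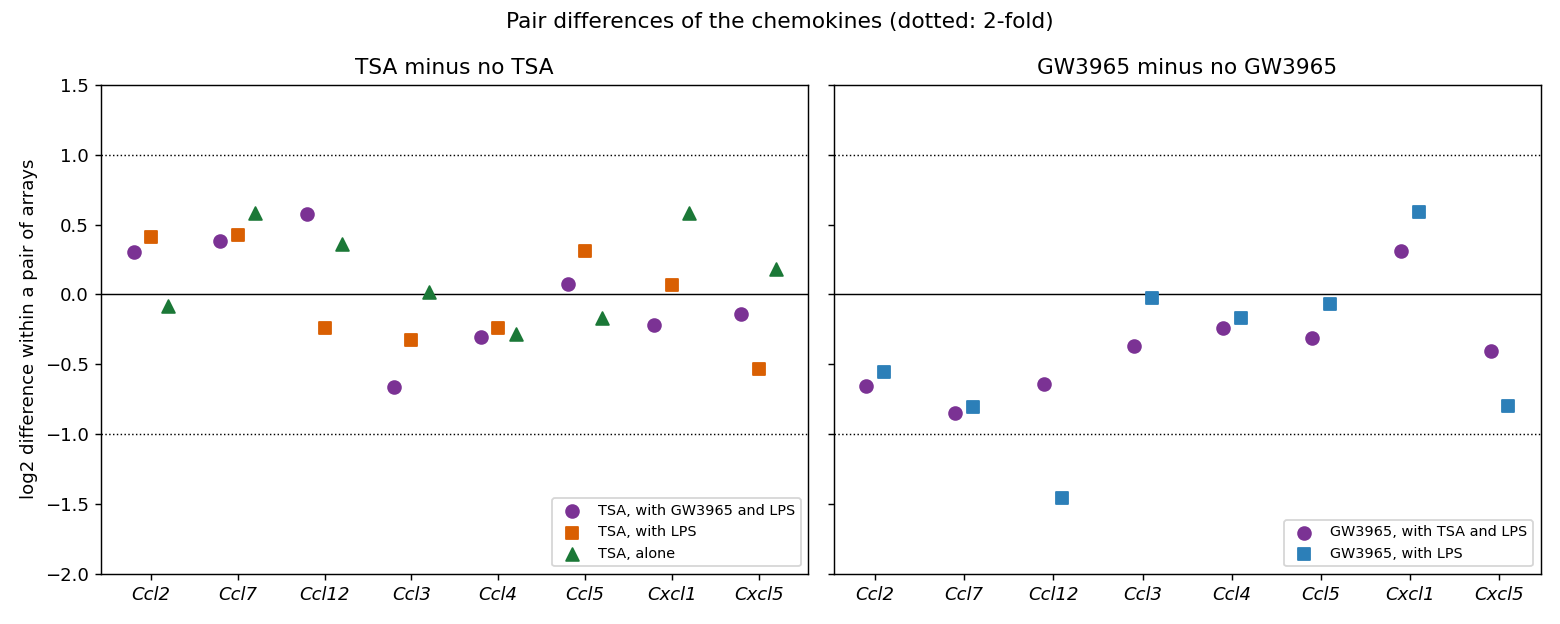
Log2 differences of each chemokine between paired arrays: left, TSA minus no TSA in 3 conditions; right, GW3965 minus no GW3965 in 2; dotted lines mark 2-fold. All TSA points lie within 2-fold, from -0.67 (Ccl3) to 0.59 (Ccl7), and 7 of 8 chemokines are below 0 in both GW3965 pairs (Ccl5 among them, whose sign turned in the pair with TSA after quantile normalization), with Ccl12 at -1.46 in one.

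Whether the LPS response itself differed with TSA was tested by adding an interaction term to the limma model. None of the 8 passed, and none had an unadjusted p under 0.05, against 255 of all 5080 genes. Over all genes 0.236% were called, 2 with a larger LPS response under TSA (0.0394%) and 10 with a smaller one (0.197%). In the LPS over No treatment pair Ccl2 was 58.7-fold higher, against 82.6-fold for TSA + LPS over TSA, an interaction of 0.44 (SE 0.45, 95% interval -0.44 to 1.32). Cxcl1 was 142-fold and 98.9-fold higher in those 2 pairs, with an interaction of -0.66 (SE 0.44, interval -1.53 to 0.21). Ccl3 was 30.3-fold and 23.9-fold higher, with an interaction of -0.51 (SE 0.46, interval -1.42 to 0.40). The intervals of the 8 reached from -1.77 (Cxcl5) to 1.32 (Ccl2), and for 7 of the 8 they include a 2-fold difference in the LPS response. This fit had 1 residual degree of freedom, and limma set each gene's spread to the trend over all genes.

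GW3965 against the same LPS condition without it gives the effect of the liver X receptor agonist. The 3 attractants Ccl2, Ccl7 and Ccl12 were lower with GW3965 and Cxcl1 was higher, but none of the 8 passed in limma. Ccl2, Ccl7 and Ccl12 had an unadjusted p under 0.05, as did 140 of all 5080 genes. This model called 4 of 5080 genes for GW3965 in all, 0.0787%, with 0.0591% risen and 0.0197% fallen. Of the 8, 7 were lower with GW3965 in 2 of 2 pairs, against 19.3% of all genes, and Cxcl1 was higher in 2 of 2, against 21.7%. After quantile normalization Ccl5 was higher by 0.05 in the pair with TSA, which leaves 6 lower in both. The median GW3965 effect of the 8 was -0.40, against 0.01 over all genes.

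Ccl12 had the largest GW3965 difference, at 5.10 in TSA + GW3965 + LPS against 7.96 in TSA + LPS, and 3.43 in GW3965 + LPS against 9.42 in LPS. It was 1.56-fold and 2.75-fold lower, and the second was the only 2-fold GW3965 difference among the 8, in a pair where 1.25% of measured genes were lower by that much and 0.476% higher; for TSA + GW3965 + LPS over TSA + LPS the shares were 0.577% lower and 1.75% higher. Its mean effect of -1.05 (SE 0.28, 95% interval -1.64 to -0.47) had a limma adjusted p of 0.392. Without the TSA + LPS array the effect was a decrease of 1.41. That fit keeps only 1 of the 2 GW3965 pairs, GW3965 + LPS over LPS, the one with the larger Ccl12 difference. Ccl7 was 1.80-fold lower with TSA and 1.75-fold lower without TSA, a mean of -0.83 ± 0.03 (SD, n = 2 pairs; limma adjusted p = 0.612). Ccl2 was 1.58-fold and 1.47-fold lower, a mean of -0.61 ± 0.07 (SD, n = 2 pairs; limma adjusted p = 1). Thus Ccl2 and Ccl7 gave nearly the same GW3965 difference with and without TSA.

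The other 5 moved less or at low signal. Cxcl1 was 1.24-fold higher in TSA + GW3965 + LPS than in TSA + LPS and 1.51-fold higher in GW3965 + LPS than in LPS, a mean of 0.45 ± 0.20 (SD, n = 2 pairs). Cxcl5 was 1.32-fold and 1.74-fold lower, close to the array median. Ccl3, Ccl4 and Ccl5 were at most 1.29-fold lower in either pair. Ccl5, whose values were near the top of the arrays, was lower by 0.31 with TSA and 0.07 without TSA on the log2 scale.

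**Figure D3:**
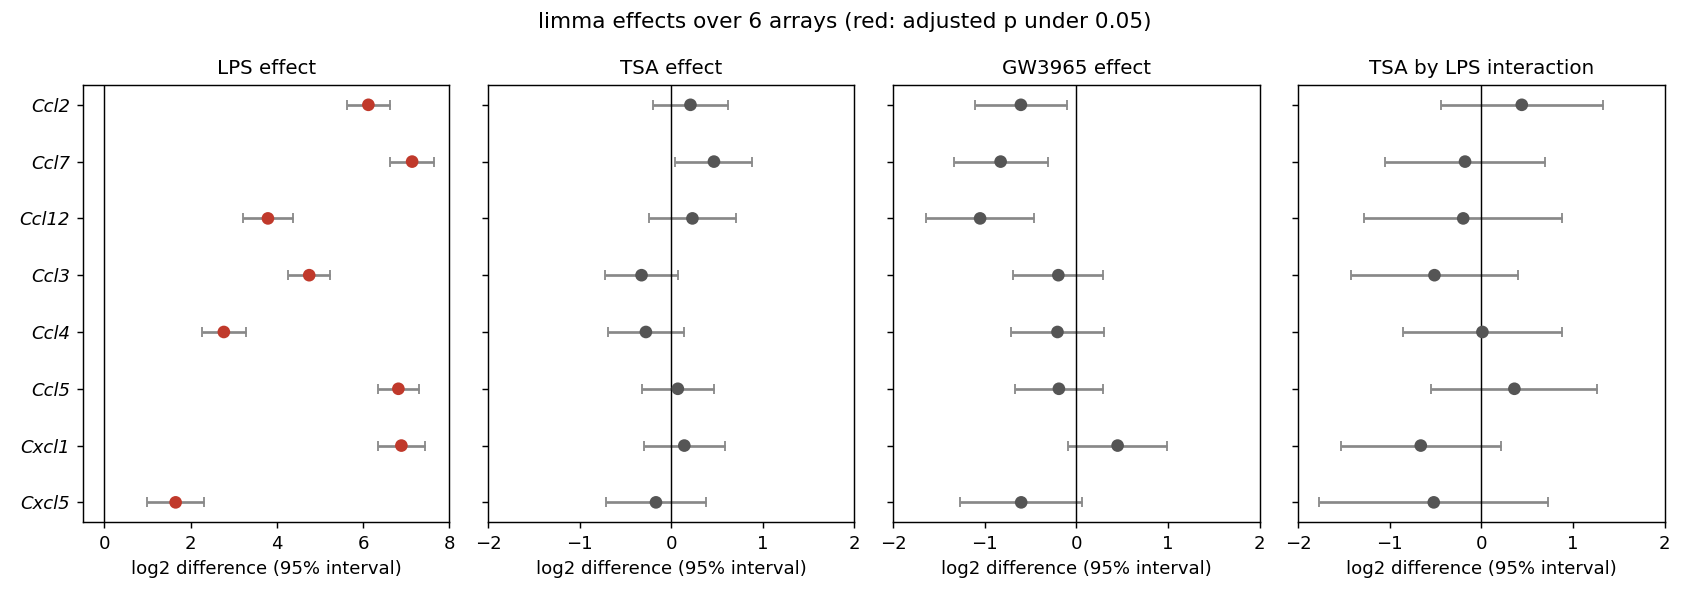
limma effects of the 8 chemokines (log2 difference, bars are 95% intervals) for LPS, TSA and GW3965 over 6 arrays and for the interaction of TSA with LPS. All 8 LPS effects pass, from 1.65 (Cxcl5) to 7.14 (Ccl7), and none of the TSA, GW3965 or interaction effects does.

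Chromosome neighbours were compared because the CC genes lie together. Ccl2, Ccl7 and Ccl12 lie on chromosome 11, with Ccl11 between the last 2 and Ccl8 next to Ccl12; Ccl3 and Ccl4 are neighbours on the same chromosome, and Cxcl1 and Cxcl5 lie on chromosome 5. Over the 6 arrays the log2 profiles of Ccl7 and Ccl5, centred on their means, were the closest of any pair of the 8, with a root mean square difference of 0.35. Cxcl1 and Cxcl5 were the farthest apart, at 2.76. Of the direct neighbours, Ccl2 and Ccl7 differed by 0.48 and Ccl3 and Ccl4 by 0.95. The measure includes the size of each change, so genes with LPS effects of like size can come out close. The LPS effects were 7.14 for Ccl7 and 6.82 for Ccl5, and 6.89 for Cxcl1 and 1.65 for Cxcl5. Whether close genes share regulation was not tested. Related chemokines have similar sequences, and cross-hybridization between their probes was not tested.

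The genes outside the 8 with the most similar profiles over the 6 arrays were found by the same measure, which includes the size of the LPS change. Nearest to Ccl7 were Ifit3 and Ifit1, antiviral proteins, with root mean square differences of 0.28 and 0.32, and Clec4e, a receptor for mycobacterial glycolipid, at 0.45. Ccl5 was nearest to the antiviral gene Rsad2 (0.34), Ifit3 (0.40) and Clec4e (0.46), and Ccl2 to Ifit3 (0.44), Mx2 (0.45) and Rsad2 (0.47). Closest to Ccl3 were Tlr2, a receptor for bacterial lipopeptides (0.28), Ehd1 (0.31) and the signalling adaptor Traf1 (0.33). Ccl4 matched the coagulation factor gene F10 (0.14), the chemokine Cxcl16 (0.15) and the nucleic acid sensor Zbp1 (0.15). Cxcl5 matched Samhd1, a nucleotide hydrolase (0.12), Tlr6 (0.15) and Tmem209 (0.15), Ccl12 matched Trim30a, Ccnd2 and Pln (0.33 each), and Cxcl1 matched Fpr2, a formyl peptide receptor (0.43), Clec4e (0.47) and Ifit3 (0.54). Rsad2 on the TSA array and Ccnd2 on the No treatment array were under the floor.

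Receptors and binding proteins of these ligands, listed together with the atypical receptor Ccrl2, were measured in the same samples. Of 14 listed, 10 were on the array and 6 passed the level filter; Ccr2, the receptor of Ccl2, Ccl7 and Ccl12, and Cxcr2, that of Cxcl1 and Cxcl5, were below the array median throughout. With LPS 2 of the 6 rose, 1 fell and 3 did not pass, with a median of 0.03, while 12.3% of all genes rose and 7.11% fell. Ccrl2 rose by 3.50 (SE 0.24, limma adjusted p = 9.98e-10). It binds chemerin, which is not 1 of the 8 ligands. The heparan sulfate proteoglycan Sdc4, which can hold chemokines at the cell surface, rose by 3.39 (SE 0.32, limma adjusted p = 1.48e-07). Ccr1, a receptor for Ccl3, Ccl5 and Ccl7, read 12.4 in TSA + GW3965 + LPS, 6.73 in GW3965 + LPS, 11.3 in TSA + LPS, 5.26 in LPS, 17.4 in TSA and 14.1 in No treatment. It was higher with TSA in every pair and lower with LPS in every pair. It fell with LPS by 1.02 (SE 0.27, limma adjusted p = 0.00961) and rose with TSA by 0.76 (SE 0.22, limma adjusted p = 0.022), a call that ended without any 1 of the 4 LPS arrays (adjusted p 0.0701 to 0.152). Of the 6, 1 rose with TSA, Ccrl2 fell and 4 did not pass, against 11% of all genes that rose and 7.54% that fell, the proteoglycan Sdc1 at -0.44 and Sdc4 at -0.51 among them, and the atypical receptor Ackr1 stood at 0.74 (limma adjusted p = 0.0534). Ccrl2 fell by 0.56 (limma adjusted p = 0.0492) and did not pass with any 1 array left out.

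Among the other chemokine genes on the array some passed for TSA; their difference from the 8 was not tested. Of 28 listed, 17 passed the level filter, and with LPS 9 of them rose, none fell and 8 did not pass, with a median effect of 0.90, while 12.3% of all genes rose and 7.11% fell. The interferon-induced chemokines Cxcl10, Cxcl11 and Cxcl9, ligands of Cxcr3, rose with LPS by 7.67, 6.17 and 4.09, and the T cell attractant Ccl17 by 3.43. With TSA 3 of the 17 rose, 4 fell and 10 did not pass, while 11% of all genes rose and 7.54% fell. Cxcl11 rose by 1.18 (SE 0.28, limma adjusted p = 0.00672) and Cxcl9 by 0.79 (SE 0.22, limma adjusted p = 0.0172), while Cxcl10 fell by 0.70 (SE 0.23, limma adjusted p = 0.0431). The eosinophil attractant Ccl24 fell by 1.45 (SE 0.36, limma adjusted p = 0.0093) and the lymphoid chemokine Ccl19 by 0.99 (SE 0.33, limma adjusted p = 0.0409). Ccl24 and Ccl19 reached the array median only on the LPS and GW3965 + LPS arrays. The level filter thus admitted them through arrays without TSA, which favours a fall. Ccl24 read 0.457 in TSA + GW3965 + LPS, 1.86 in GW3965 + LPS, 0.575 in TSA + LPS, 2.95 in LPS, 0.569 in TSA and 0.553 in No treatment, so that it differed with TSA in the LPS pairs and was level, below the array median, at rest. Ccl19 was under the floor on both resting arrays, Cxcl11 on the No treatment array and Ccl17 on the TSA array, so their effects depend in part on the floor. Raising the floor to the array medians, none of the 17 rose or fell with TSA.

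Of the 37 listed signalling genes between LPS and the chemokine promoters, 22 passed the level filter. With LPS 14 of the 22 rose, none fell and 8 did not pass, with a median of 1.21, while 12.3% of all genes rose and 7.11% fell. The NF-kB inhibitor Nfkbia rose by 3.94, the NF-kB subunit Nfkb2 by 3.40, the interferon regulatory factor Irf7 by 3.36 and the LPS co-receptor Cd14 by 3.30. With TSA 7 of the 22 fell, none rose and 15 did not pass, with a median of -0.30 against 0.01 over all genes, of which 7.54% fell and 11% rose. Nfkb2 fell by 1.09 (SE 0.23, limma adjusted p = 0.00306), the kinase Irak1 by 1.02 (SE 0.21, limma adjusted p = 0.00258), the interferon regulatory factor Irf8 by 0.99 (SE 0.25, limma adjusted p = 0.0121) and the adaptor Myd88 by 0.96 (SE 0.26, limma adjusted p = 0.015). With the higher floor at the array medians 2 of the 22 fell with TSA, without the LPS array or the TSA + LPS array 3, and 9 after quantile normalization.

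**Figure D4:**
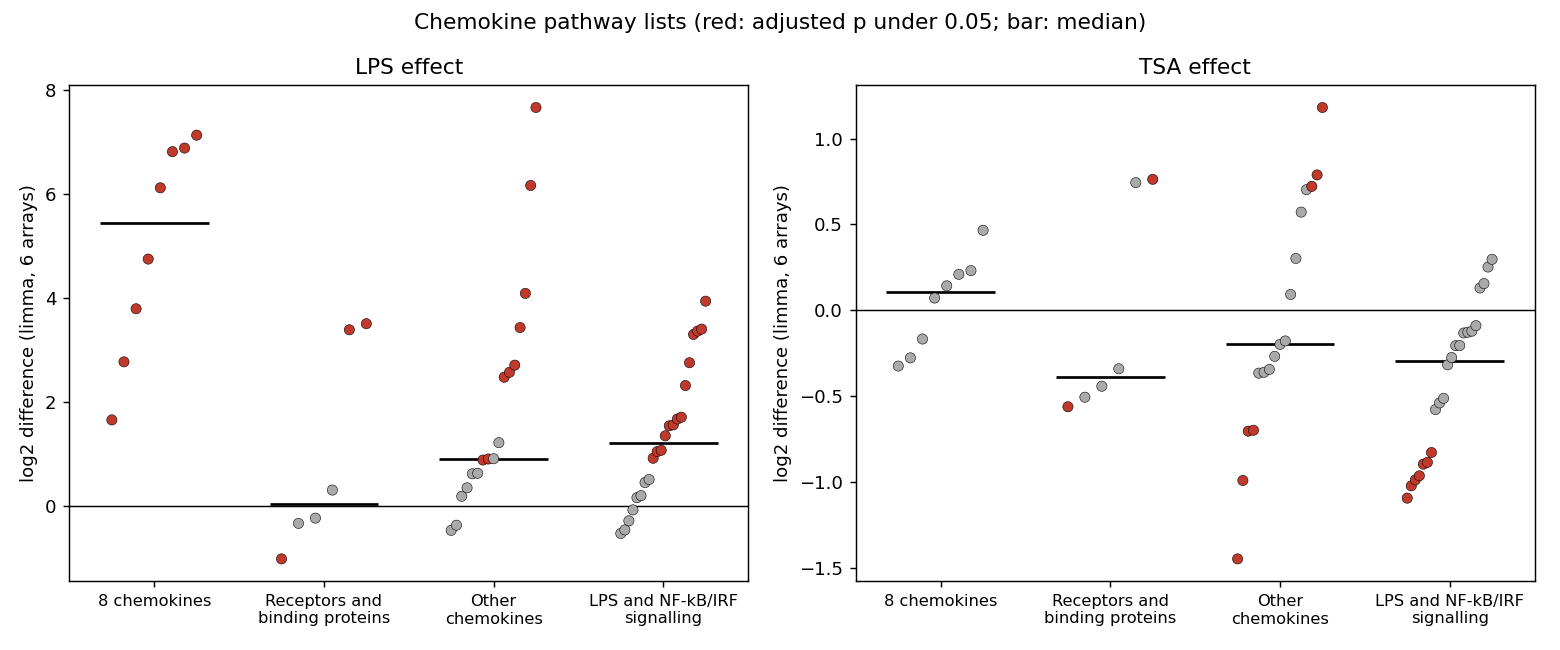
limma effects of LPS (left) and TSA (right), as log2 differences, for the 8 chemokines and 3 pathway lists; each point is a gene, red points have an adjusted p under 0.05 and bars are medians. All 8 chemokines are red for LPS and none for TSA, where 7 of 22 signalling genes are red and below 0.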

How the data were processed

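The authors deposited a table of linear intensity values for 6 arrays, already scaled between arrays; the scaling, the background treatment and the scanner are not given in the sources used here. Per the labels, biotin-labelled cRNA was made from total RNA. Of the 10076 probes 8983 had 1 gene symbol, 1 had several and 1092 had none; of 138 genes with several probes the one with the highest mean was read. The deposited intensities were floored at each array's 25th percentile and converted to log2 values. Genes at or above the array's median on at least 1 array, 5080 in all, were fitted with limma 3.58.1 in R 4.3.3 (empirical Bayes, intensity trend, 2 residual and 16.9 prior degrees of freedom; adjusted p under 0.05, two-sided). Pairs of arrays were compared over genes whose brighter value reached that array's median, with differences of 2-fold or more counted and not tested. The pipeline was tested on simulated data with known effects and independent noise of the same spread for all genes. Those data held no departures from the fitted model beyond that noise. They therefore do not check the error estimate used here.

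The members, the gene and marker lists, and the tests were chosen with earlier results of these data known. Named genes are the 8 chemokines, the 3 genes most like each of them, and for each list the 4 with the largest LPS effect and the 4 with the largest TSA effect. Genes of the cell marker lists, Ccr2, Cxcr2 and, at the end, Ccl8, Ccl9 and Ccl6 are named outside this rule, after their values were seen. Of the list genes, Cd14 also stands among the macrophage markers and Cxcr2 among the neutrophil markers. Alternatives covered scaling, floor, filter, probes, prior variance, fold threshold and leaving out arrays. The number of arrays limits the precision. Figures were drawn with matplotlib 3.10.9.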

Additional observations from a re-analysis of the deposited data

How the results depend on the processing

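All 8 chemokines rose with LPS in limma under every alternative run for that effect, namely quantile and cyclic loess normalization, 2 other floors, averaged probes, no level filter, a prior variance without a trend, and each array left out in turn. For TSA the number that fell was 1 (Ccl3) after quantile normalization and 1 after cyclic loess, and 0 in the other alternatives, leave-one-out fits included. For GW3965 it was 0 to 1 over the fits that left out an array, the 1 being Ccl12 without the TSA + LPS array, and 0 elsewhere. The interaction called 0 of the 8 throughout. At a 1.5-fold threshold 1 chemokine was higher with TSA at rest (Ccl7), 1 was lower with TSA in the GW3965 pair (Ccl3), 1 was higher (Cxcl1) and 3 lower in GW3965 + LPS than in LPS, and 3 were lower in TSA + GW3965 + LPS than in TSA + LPS. The shares of measured genes past this threshold in the same pairs and directions were 19.8%, 7.17%, 2.83%, 7.18% and 5.79%. Over all genes, quantile normalization moved the median LPS effect from 0.03 to -0.11 and the genes that fell with LPS from 361 to 556. The floor at the array medians left 205 that fell with LPS, and 241 that rose and 100 that fell with TSA, in place of 557 and 383. The GW3965 call count over all genes was 3 risen and 1 fallen, and reached 41 risen without the LPS array and 42 fallen without the TSA + LPS array. The cause was not tested. No paired analysis was possible because each group has 1 array and the labels give no replicate numbers to serve as a block; the pairs of arrays compared here are matched by condition only. Having 6 arrays limits the precision, and Ccl12 and Cxcl5 at rest lie below the array median.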

Other observations

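Of the 17 other chemokine genes fitted, 1 fell with GW3965, none rose and 16 did not pass, while 0.0591% of all genes rose and 0.0197% fell. Their median effect was -0.29, against 0.01 over all genes. The gene that fell was Cxcl10, by 1.97 (SE 0.29, limma adjusted p = 0.00194). Values of 3 CC chemokine genes among the 17 that neighbour the 8 on chromosome 11 are also given here, chosen after their values were seen. Ccl8, a CC chemokine beside Ccl12, read 3.71 in TSA + GW3965 + LPS against 2.86 in TSA + LPS, and 2.40 in GW3965 + LPS against 2.32 in LPS, so it was 1.30-fold and 1.03-fold higher where Ccl2, Ccl7 and Ccl12 were lower in both pairs. Ccl9, a CC chemokine beside Ccl5 that binds Ccr1, was 1.56-fold and 1.29-fold higher with GW3965 in the same pairs, at 554 in TSA + GW3965 + LPS against 356 in TSA + LPS, and 633 in GW3965 + LPS against 489 in LPS. Ccl6, beside Ccl3, was 1.21-fold lower in TSA + GW3965 + LPS than in TSA + LPS and 1.31-fold higher in GW3965 + LPS than in LPS. None of the 3 passed for GW3965 in limma (adjusted p = 1 for each), and the difference between genes was not tested.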
